A study of Mus musculus with 8 samples.

Results

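The genes described here form the mevalonate and sterol synthesis pathway, the machinery that senses cholesterol, and the proteins that move, store or export it. The set was given as 32 named genes, and a gene was measured here where a probe set of the array is annotated with its symbol alone. That held for 28 of the 32, out of 22180 genes measured in this way. Idi1, whose probe set carries a further symbol, and Acat2, Nr1h2 and Soat1, which the annotation used here does not list, were not analysed here. All 28 passed the intensity filter, so that the 28 stand among 11585 tested genes.

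RNA came from CD4 single-positive thymocytes (CD4SP), maturing thymic T cells committed to the CD4 lineage, sorted from thymus on the C57BL/6 background. The 8 arrays comprised 4 of wild-type (WT) cells and 4 of cells labelled as a knockout of Pggt1b (KO), and the labels name no treatment. Pggt1b encodes the catalytic subunit of geranylgeranyl transferase I. The sources used here do not give the deleted part of the gene, what drove the deletion, or the age and sex of the mice. Whether each array stands for a mouse of its own is not stated, so the p-values reflect only the spread between these samples, which may be technical. Replicate numbers follow the order of deposit and pair no arrays.

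The mevalonate pathway builds isoprenoids from acetyl-CoA. Its farnesyl diphosphate is the branch point between sterols and the lipid anchors, among them the geranylgeranyl group that the enzyme encoded by Pggt1b attaches to small GTPases. When sterols in the endoplasmic reticulum run low, the escort protein SCAP carries the transcription factor SREBP2 to be cleaved, and the genes of synthesis are transcribed. When oxysterols accumulate, the nuclear receptors LXR alpha and LXR beta instead switch on genes of cholesterol export. In T cells, proliferation is known to come with sterol synthesis and quiescence with export.

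As a check of the labels, Pggt1b itself read 8.35, 8.38, 8.29 and 8.36 log2 in the WT arrays and 7.89, 7.57, 7.69 and 7.86 in the KO arrays. KO was lower in every array, by 0.59 ± 0.072 log2 (SE; limma, Benjamini-Hochberg adjusted p = 0.00141). Of the CD4SP markers looked up, 5 of 6 had a probe set, Cd3e, Cd3g, Cd4, Cd5 and Zbtb7b, and all passed the filter with 0 called between the genotypes (limma, adjusted p from 0.531 to 0.988, and 0 at an unadjusted p under 0.05). In contrast, 3 of 4 measured B cell markers and 5 of 8 macrophage and dendritic cell markers lay under the filter, the median of all probe sets at 5.56 log2. Of 6 measured genes looked up as epithelial and stromal markers, however, 4 passed it, while Epcam and Pdgfra did not. Krt8, Col1a1 and Col3a1 had WT means of 6.46, 6.36 and 5.90 log2 and were not called. Pecam1, with a WT mean of 10.70, was called higher in KO (0.24 log2, limma adjusted p = 0.0286). Its level stood far above the others of the list, so it is not read here as a sign of epithelial or stromal cells. The CD8 and double-positive list stood at array means of 7.99 to 8.31 in WT and 7.62 to 7.97 in KO, which did not overlap. All 5 of its tested genes lay below 0, against 59.1% of all tested genes, and 1 of them, Cd8a, was called lower. Since these are bulk samples, fewer cells of a type and less RNA per cell cannot be told apart.

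Promoter windows from RefSeq (GRCm38.p6), running from 250 bases before to 50 after a transcription start, were available for 26 of the 32 genes. They are given because genes of sterol synthesis are known to be regulated together through sterol regulatory elements and the neighbouring CCAAT boxes bound by NF-Y. The windows were searched on both strands for TCACNCCAC, a form of the sterol regulatory element, for CCAAT, and for the DR4 element of LXR, a direct repeat of AGGTCA with 4 bases between. In the windows printed here, no match overlaps another. A CCAAT box stood in a window of 14 of 15 synthesis genes (93.3%), against 42.1% of the 9124 tested genes with a window and 37.4% of all 32851 windows. It stood in 7 of the 11 other members with a window. TCACNCCAC was found in 1 member, Hmgcs1, and in 1.24% of all windows. The exact DR4 letters were found in 0 of the 26 members and 0.0152% of all windows. They stood in 0 of the 9124 tested genes with a window, so the members could hardly have given another count. Variant forms of the repeat were not searched for, and nothing is drawn from the absence. A match is a description of letters, not a measured site.

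The windows of Mvd, Dhcr7 and Mylip are printed in lower case with every match in capitals. They are the members of the mevalonate, sterol and LXR groups with the smallest p. Hmgcs1 is added, after its match was seen, as the window with the sterol regulatory element, which reads TCACCCCAC there, while its other capitals are CCAAT boxes read on the opposite strand (ATTGG). Each is read 5′ to 3′ on the strand of the gene. The windows are chr8:122443373-122443672 on the minus strand for Mvd, chr7:143829964-143830263 on the plus strand for Dhcr7, chr13:45389492-45389791 on the plus strand for Mylip and chr13:119690101-119690400 on the plus strand for Hmgcs1. For Dhcr7 this is the window of 3 that holds a match.
Mvd: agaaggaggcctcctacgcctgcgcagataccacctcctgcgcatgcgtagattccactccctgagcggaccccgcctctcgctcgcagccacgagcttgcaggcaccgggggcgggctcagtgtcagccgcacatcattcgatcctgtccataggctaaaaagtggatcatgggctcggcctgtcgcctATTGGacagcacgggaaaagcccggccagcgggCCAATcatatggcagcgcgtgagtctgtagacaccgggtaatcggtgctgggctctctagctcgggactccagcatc
Dhcr7: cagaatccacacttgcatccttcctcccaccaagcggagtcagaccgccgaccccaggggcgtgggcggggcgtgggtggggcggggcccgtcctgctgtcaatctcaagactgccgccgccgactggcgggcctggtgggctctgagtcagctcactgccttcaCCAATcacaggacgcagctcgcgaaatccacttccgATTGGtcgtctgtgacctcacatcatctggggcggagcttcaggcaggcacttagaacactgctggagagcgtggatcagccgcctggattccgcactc
Mylip: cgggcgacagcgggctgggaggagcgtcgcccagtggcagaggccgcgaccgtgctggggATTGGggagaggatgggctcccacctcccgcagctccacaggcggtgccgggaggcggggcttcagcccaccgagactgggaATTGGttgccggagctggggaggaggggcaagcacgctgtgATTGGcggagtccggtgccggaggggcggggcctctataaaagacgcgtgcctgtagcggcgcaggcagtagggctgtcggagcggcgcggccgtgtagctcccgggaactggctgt
Hmgcs1: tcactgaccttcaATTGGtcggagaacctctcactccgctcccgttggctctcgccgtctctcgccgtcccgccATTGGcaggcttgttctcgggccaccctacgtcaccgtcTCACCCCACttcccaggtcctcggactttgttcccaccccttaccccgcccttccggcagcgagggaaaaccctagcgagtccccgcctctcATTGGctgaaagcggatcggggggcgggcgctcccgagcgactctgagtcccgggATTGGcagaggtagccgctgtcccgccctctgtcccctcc
The Mvd and Dhcr7 windows each hold 2 CCAAT boxes, the Mylip window 3 and the Hmgcs1 window 4.

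The title of the series ties mevalonate metabolism to geranylgeranylation of proteins and to the exit of thymocytes. The comparison of KO with WT gives the transcripts of that pathway and of cholesterol handling when the transferase is targeted. Of the 28 members 1 was called lower and 0 higher (limma, Benjamini-Hochberg adjusted p under 0.05 over all tested genes). Among all tested genes 8.53% were called lower and 4.45% higher, so the members' share of 3.57% called lower was not above the background. At an unadjusted p under 0.05, 6 members were lower and 1 was higher. The share of all tested genes at that threshold was not counted. Counts at an unadjusted p, here and below, thus have no background beside them and are not read as a sign of change.

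Differences were small in size: 15 members lay within 0.1 log2 of 0, 7 between 0.1 and 0.2, and 6 beyond 0.2. The SE of a difference ranged from 0.046 to 0.28 log2, with a median of 0.072. The 95% interval of the difference reached a change of 1.5-fold for 2 members, Sqle and Abca1. For all other members the interval did not reach that size in either direction.

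**Figure D1:**
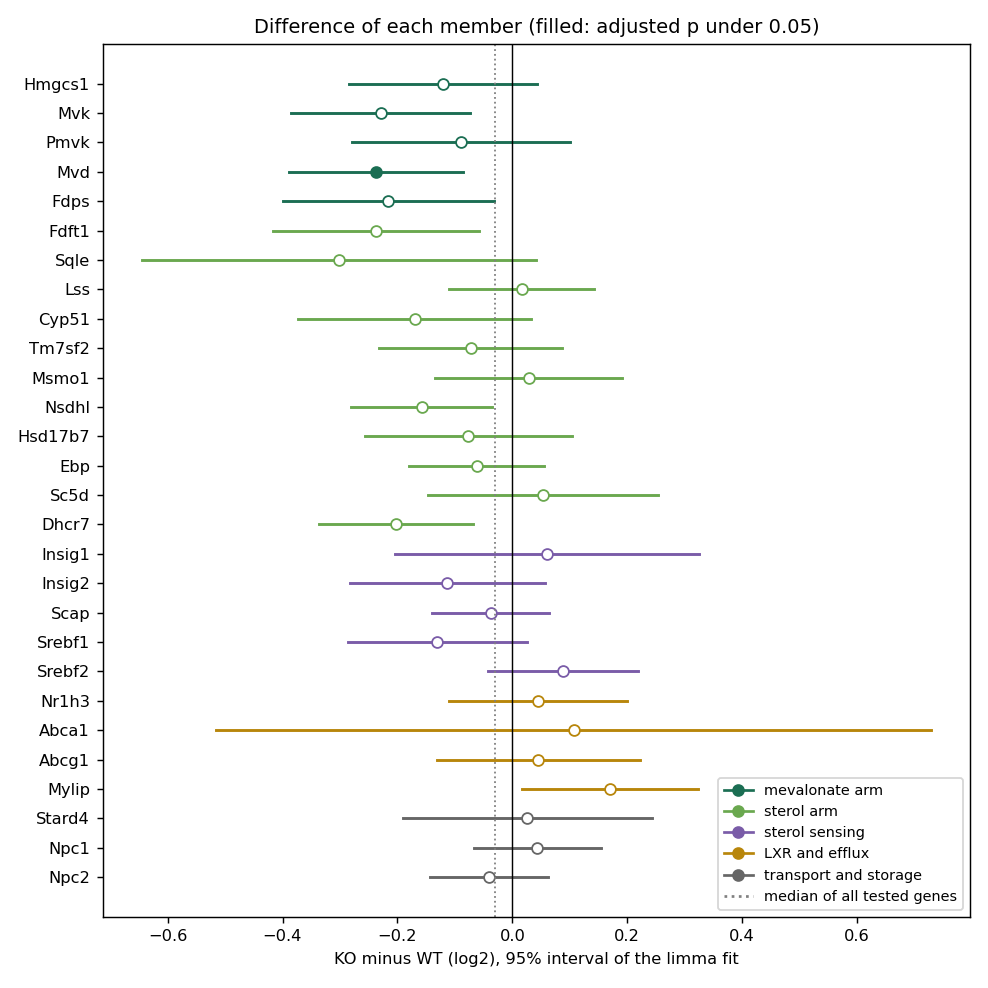
Difference between KO and WT (x axis, log2) for the 28 measured members (y axis), coloured by role, with the 95% interval of the limma fit (n = 4 arrays per genotype). The filled point is Mvd, the 1 member with an adjusted p under 0.05; synthesis members lie mostly below 0, with a median of -0.14, and the dotted line marks the median of all tested genes, -0.03.

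Members of synthesis leaned lower. Of 16 measured, 13 lay below 0 (81.2%), against 59.1% of all tested genes, and their median difference was -0.14 log2 beside -0.03 over all tested genes. In 5 of the 16, every KO array was under the lowest WT array, which held for 13.5% of tested genes. The reverse held for 0, against 6.79% of tested genes. The 5 were Mvd, Mvk, Fdps, Nsdhl and Dhcr7. These counts describe the list and carry no test.

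In the mevalonate arm all 5 measured genes lay below 0. Mvd, the decarboxylase that yields isopentenyl diphosphate, read 7.27, 7.48, 7.26 and 7.21 log2 in WT and 7.06, 7.09, 6.98 and 7.15 in KO. The groups did not overlap. Mvd fell 1.18-fold (log2 -0.24 ± 0.068 SE, adjusted p = 0.0475, limma). Its call ended without WT replicate 1, 2 or 3 and without each single KO array (limma adjusted p between 0.0578 and 0.12). It also ended with no intensity filter (0.0951), a trended robust prior (0.0588), and the cell cycle (0.905) or heat-shock level (0.0824) as a covariate. With the cell cycle level as a covariate Pggt1b itself was not called either (limma adjusted p = 0.299).

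Mvk, the kinase that phosphorylates mevalonate, read 7.56, 7.63, 7.65 and 7.51 in WT and 7.31, 7.50, 7.42 and 7.20 in KO. The highest KO array came to just under the lowest WT array. The difference was -0.23 ± 0.070 log2 (SE), with an adjusted p of 0.0594 (limma) that fell to 0.0411 without KO replicate 2.

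Fdps makes farnesyl diphosphate, the substrate from which both squalene and the geranylgeranyl precursor are built. It read 9.33, 9.32, 9.32 and 9.51 in WT and 9.19, 9.18, 8.94 and 9.31 in KO. The groups touched without overlapping, WT replicate 4 standing above the other WT arrays and KO replicate 3 below the other KO arrays. Its difference was -0.22 ± 0.082 log2 (SE; limma adjusted p = 0.116).

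Hmgcs1, the synthase that forms HMG-CoA at the head of the pathway, read 8.59, 8.79, 8.52 and 8.83 in WT and 8.58, 8.54, 8.52 and 8.60 in KO. WT replicates 2 and 4 lay above all KO arrays, WT replicate 1 lay among them, and WT replicate 3 just below the lowest of them. The difference of -0.12 log2 had a 95% interval from -0.28 to 0.04 (adjusted p = 0.311, limma). Pmvk, which adds the further phosphate to mevalonate phosphate, spanned 6.89 to 7.28 in WT and 6.87 to 7.11 in KO and differed by -0.09 (adjusted p = 0.530, limma).

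In the sterol arm 8 of 11 genes lay below 0 and 0 were called by limma, with 3 lower at an unadjusted p under 0.05. Dhcr7, the reductase of the last step to cholesterol, read 8.55, 8.64, 8.68 and 8.77 in WT and 8.46, 8.54, 8.37 and 8.47 in KO. All KO arrays were lower, the closest pair of values lying just apart. The difference was -0.20 ± 0.060 log2 (SE; adjusted p = 0.0549), and without WT replicate 1 the adjusted p was 0.0352.

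Fdft1, squalene synthase, commits farnesyl diphosphate to sterols. It read 8.96, 9.26, 9.29 and 9.30 in WT and 8.95, 9.01, 8.87 and 9.03 in KO. WT replicate 1 alone lay among the KO arrays. The difference was -0.24 ± 0.080 log2 (SE; adjusted p = 0.0834, limma), and -0.32 (adjusted p = 0.0112) without that array.

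Nsdhl, a dehydrogenase that takes part in removing the methyl groups from the sterol ring, read 8.98, 8.86, 8.78 and 8.86 in WT and 8.68, 8.77, 8.68 and 8.73 in KO. The groups were adjacent without overlap. The difference was -0.16 ± 0.055 log2 (SE; adjusted p = 0.0909, limma).

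Sqle, the squalene epoxidase and a rate-limiting step of the arm, had the largest difference among the 28 members and among the widest spreads. It read 6.64, 6.61, 6.56 and 7.03 in WT and 6.43, 6.70, 5.97 and 6.53 in KO. The groups overlapped, and the size rested on the high WT replicate 4 and the low KO replicate 3. The difference was -0.30 ± 0.15 log2 (SE; adjusted p = 0.227, limma), and without KO replicate 3 it was -0.16.

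Cyp51, the lanosterol demethylase, read 6.22, 6.58, 6.20 and 6.47 in WT and 6.23, 6.30, 6.08 and 6.19 in KO. The groups overlapped, with WT replicates 2 and 4 above all KO arrays, and the difference was -0.17 (adjusted p = 0.249, limma). Ebp, a sterol isomerase, read 9.13, 9.08, 9.12 and 9.22 in WT and 9.10, 9.02, 9.03 and 9.15 in KO, an overlapping pair of groups with a difference of -0.06. Tm7sf2, a sterol reductase, spanned 7.61 to 7.78 in WT and 7.51 to 7.80 in KO, a difference of -0.07. Hsd17b7, a ketoreductase, spanned 6.4 to 6.62 and 6.26 to 6.61, a difference of -0.08. In both the genotypes overlapped. The lanosterol synthase Lss, the methyl oxidase Msmo1 and the desaturase Sc5d were the members above 0, at 0.02, 0.03 and 0.05, with adjusted p from 0.744 to 0.882. Lss and Msmo1 turned to -0.018 and -0.0053 under median centring of the arrays.

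**Figure D2:**
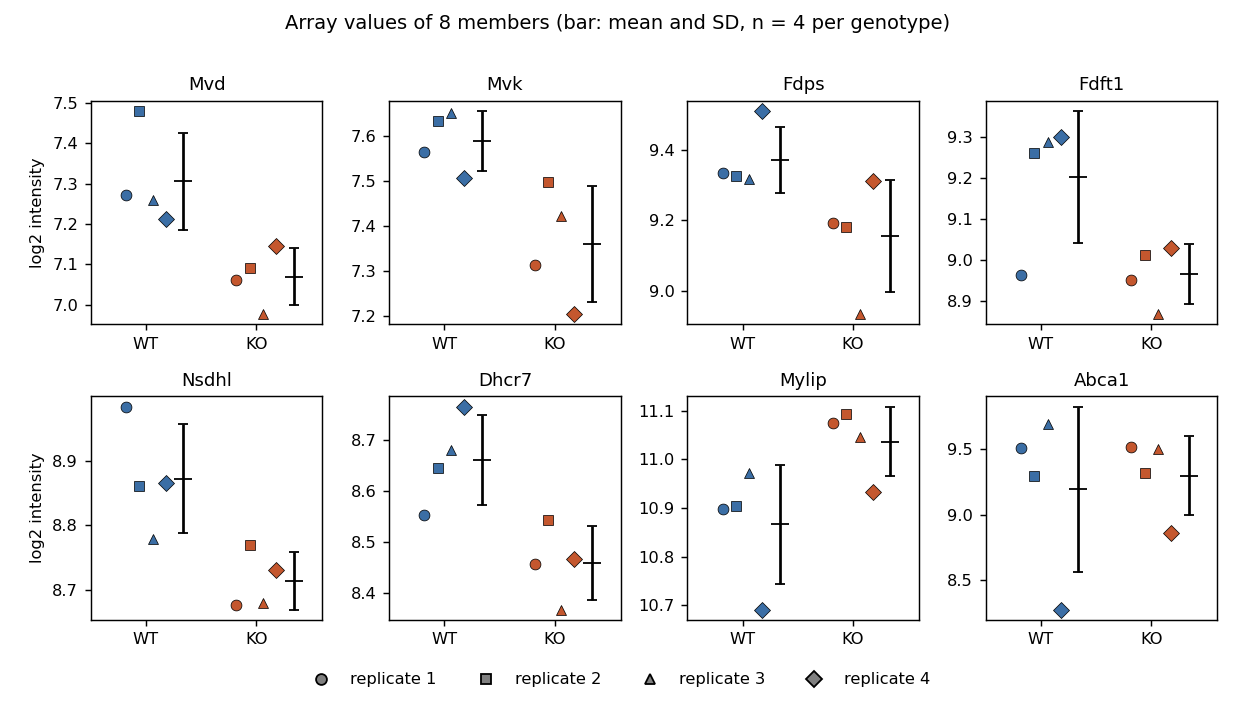
Log2 intensity (y axis, a separate scale in each panel) of 8 members in each array of WT (blue) and KO (orange), with the mean and SD beside the points (n = 4); marker shapes name the replicate and pair no arrays. Mvd, Mvk, Fdps, Nsdhl and Dhcr7 show no overlap between the genotypes, Fdft1 overlaps through WT replicate 1, and Mylip and Abca1 are lowest in WT replicate 4.

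The genes that sense sterols and drive the program held 0 called changes (limma, and 0 at an unadjusted p under 0.05). Srebf2, which encodes SREBP2, read 10.52, 10.38, 10.43 and 10.38 in WT and 10.50, 10.61, 10.41 and 10.54 in KO. The groups overlapped, with a difference of 0.09 log2 and a 95% interval from -0.04 to 0.22 (adjusted p = 0.355, limma). Its sign was thus opposite to that of most synthesis members.

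Srebf1 encodes SREBP1, whose SREBP1c form is an LXR target that drives fatty acid synthesis. It read 9.08, 8.85, 8.88 and 8.76 in WT and 8.82, 8.74, 8.69 and 8.80 in KO. WT replicate 1 was high and WT replicate 4 lay among the KO arrays, with a difference of -0.13 (adjusted p = 0.248). Insig2, a protein that holds SCAP in the endoplasmic reticulum, read 8.29, 8.50, 8.26 and 8.53 in WT and 8.40, 8.30, 8.21 and 8.24 in KO. WT replicates 2 and 4 were the high arrays, as for Hmgcs1, and the difference was -0.11 (adjusted p = 0.363, limma). Insig1, which has the same function and is itself an SREBP target, spanned 7.73 to 8.14 in WT and 7.76 to 8.24 in KO, a difference of 0.06 (adjusted p = 0.784). Scap differed by -0.04 with a 95% interval from -0.14 to 0.06.

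The 4 measured LXR and efflux members, in turn, all lay above 0, with a median of 0.08 log2 and 0 called (limma, with 1 at an unadjusted p under 0.05). This direction rested on a single array. WT replicate 4 was the lowest WT array for all 4 members, and without it 3 of the 4 lay below 0 and the median was -0.021. Over all tested genes WT replicate 4 was the lowest WT array in 23.6%. KO replicate 4 was in turn the lowest KO array for 3 of the 4 members, against 24.5% of all tested genes. Without KO replicate 4, 0 of the 4 lay below 0 and the median was 0.14.

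Mylip, a ubiquitin ligase induced by LXR that degrades lipoprotein receptors, read 10.90, 10.90, 10.97 and 10.69 in WT and 11.07, 11.09, 11.05 and 10.93 in KO. KO replicate 4 lay below WT replicate 3 and the other KO arrays lay above all of WT. The difference was 0.17 ± 0.069 log2 (SE; adjusted p = 0.134, limma). It was the member that kept its sign without WT replicate 4, at 0.11.

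Abca1, the transporter that loads cholesterol onto apolipoproteins, read 9.51, 9.30, 9.69 and 8.28 in WT and 9.52, 9.32, 9.5 and 8.86 in KO, values given in full after they were seen. Both genotypes had 1 low array, and the other values overlapped closely. The difference of 0.11 log2 had a 95% interval from -0.52 to 0.73 (adjusted p = 0.843, limma), which holds a rise of 1.5-fold but not a fall of that size. Without WT replicate 4 the difference was -0.20. Abcg1, which exports cholesterol to lipoprotein particles, spanned 10.89 to 11.26 in WT and 11.11 to 11.24 in KO. Its difference and that of Nr1h3, which encodes LXR alpha, were both 0.04 (adjusted p = 0.757 and 0.718), and without WT replicate 4 they were -0.033 and -0.0084. Since LXR alpha and these transporters are also known from macrophages, the macrophage and dendritic cell list is given beside them. Its mean over 8 genes was 5.25 to 5.39 log2 across WT arrays and 5.11 to 5.43 across KO arrays, with 0 of 3 tested genes called (limma, and 0 at an unadjusted p under 0.05). Its part in these values was not tested.

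Of the 3 transport and storage members 0 were called (limma, and 0 at an unadjusted p under 0.05). Stard4, a cytosolic carrier of cholesterol and an SREBP target, spanned 7.36 to 7.86 in WT and 7.52 to 7.62 in KO, with a difference of 0.03 (adjusted p = 0.889, limma). Npc1 and Npc2, which together release cholesterol from lysosomes, differed by 0.04 and -0.04, with 95% intervals from -0.07 to 0.15 and from -0.14 to 0.06. Npc1 and Scap each have a dimmer probe set besides the one used. For Npc1 it differed by 0.13 and for Scap by -0.0034, and neither was tested.

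**Figure D3:**
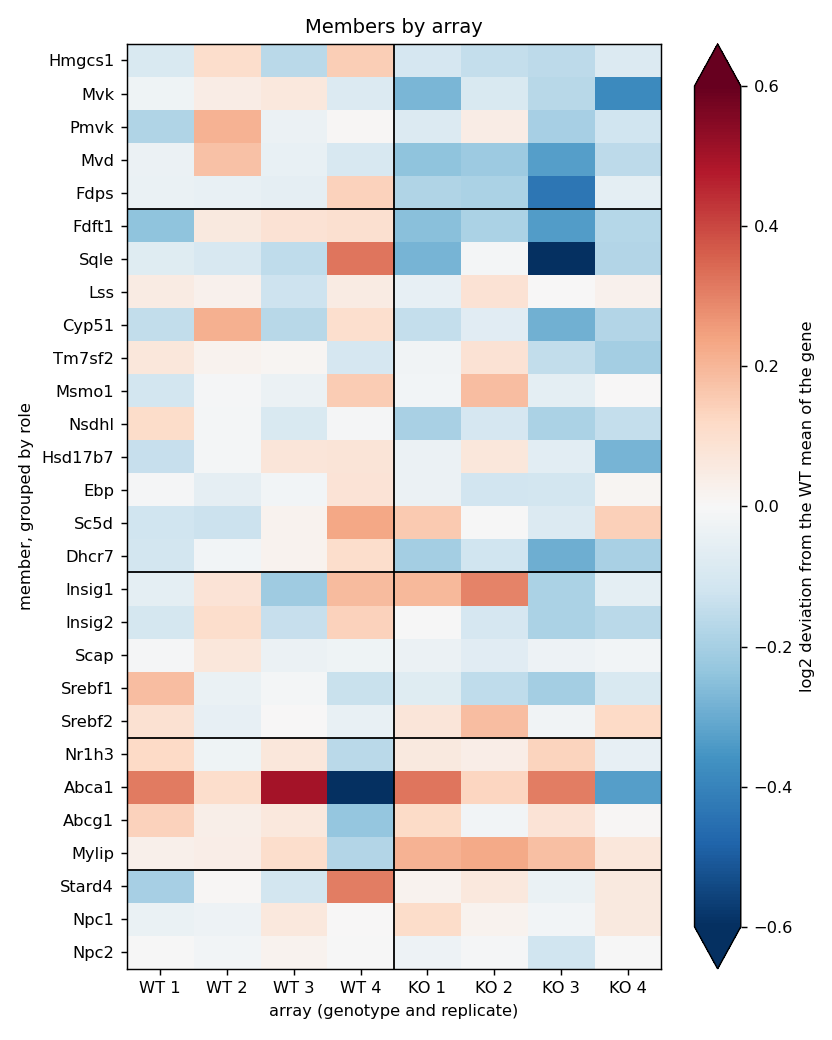
Deviation of each array (x axis) from the WT mean of the same gene (colour, log2, limited to 0.6 either way) for the 28 members (y axis), with lines between the roles and between the genotypes. KO replicate 3 is the bluest KO column among synthesis members, and WT replicate 4 is blue in all 4 LXR and efflux members while Sqle, Sc5d and Stard4 are red there.

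Within a genotype, the members moved with the array as well. WT replicate 4 was the highest WT array for 9 of the 16 synthesis members (56.2%), against 31.0% of all tested genes, while it was the lowest for all 4 LXR and efflux members. KO replicate 3 was the lowest KO array for 10 of the 16 synthesis members (62.5%), against 21.7% of tested genes. KO replicate 2 was the highest for 10 of 16, although it was highest in only 19.3% of tested genes. These are descriptions of single arrays, and the members of an array share its RNA and hybridisation.

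Averaged over the 16 synthesis members, the arrays stood at 7.85, 7.95, 7.88 and 7.99 log2 in WT and at 7.79, 7.87, 7.69 and 7.79 in KO. The mean was 7.92 ± 0.065 in WT and 7.79 ± 0.072 in KO (SD, n = 4 each), and KO replicate 2 lay above WT replicate 1, so the groups overlapped. The average of the 4 LXR and efflux members was 9.45, 9.34, 9.49 and 8.93 in WT and 9.48, 9.39, 9.48 and 9.22 in KO. WT replicate 4 lay below all KO arrays, and WT replicate 3 just above the highest of them.

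Of 2 further lists, the cell cycle list was lower in every KO array than in any WT array. The dissociation and heat-shock list was higher in the KO arrays than in any WT array, except in KO replicate 3. The cell cycle list, of which 9 of 15 tested genes were called lower and 0 higher, averaged 8.64 to 9.05 across WT arrays and 8.34 to 8.61 across KO arrays. Its lowest WT array was replicate 4, in which synthesis members stood highest. With the array mean of this list as a covariate all 16 synthesis members lay below 0 with a median of -0.23, and 0 of the 28 members were called (limma; Pggt1b itself then had an adjusted p of 0.299). The LXR and efflux median was then 0.30, with 0 of 4 below 0. Since this level was lower in every KO array than in any WT array, that fit can hardly separate it from genotype. The dissociation and heat-shock list averaged 7.93 to 9.02 in WT and 9.99, 9.64, 7.76 and 9.44 in KO, with KO replicate 3 the lowest of all. All 7 of its tested genes lay above 0, against 4734 of all 11585 tested genes. Of the 7, 1 was called higher, Jun, at 0.91 log2 (limma adjusted p = 0.0288), and 0 lower. With the heat-shock list as a covariate 1 member was called lower, Dhcr7, at -0.25 (limma adjusted p = 0.0429). The synthesis median was -0.14 and the LXR and efflux median 0.13, with 0 of 4 below 0. The part of both lists in the differences was otherwise not tested.

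**Figure D4:**
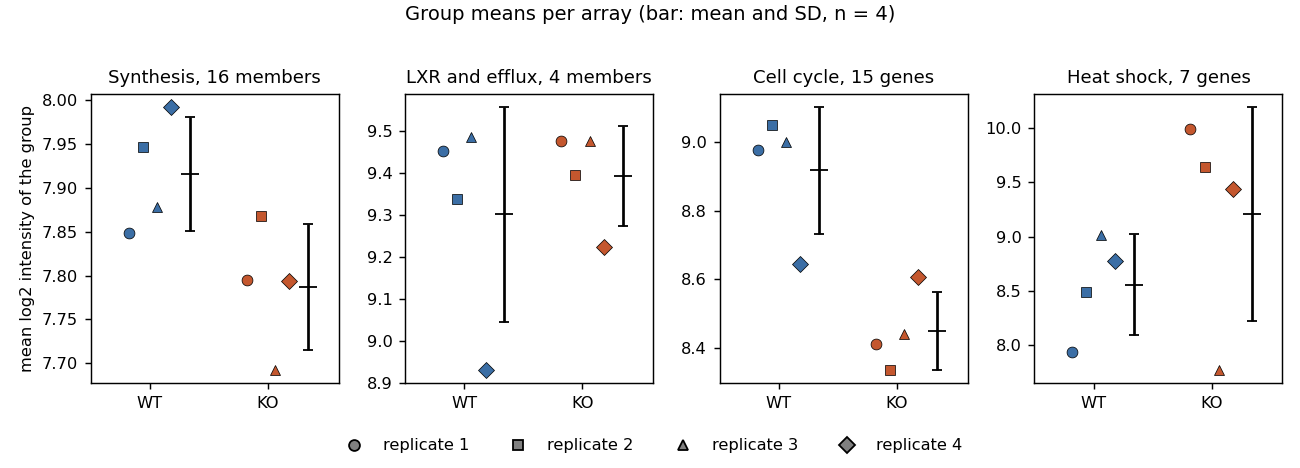
Mean log2 intensity per array (y axis, a separate scale in each panel) over synthesis members, LXR and efflux members, cell cycle genes and dissociation and heat-shock genes in WT (blue) and KO (orange), with the mean and SD beside the points (n = 4); marker shapes pair no arrays. The cell cycle means do not overlap between genotypes (lowest WT 8.64, highest KO 8.61), the synthesis means overlap through WT replicate 1 and KO replicate 2, and the low point of the LXR and efflux panel is WT replicate 4.

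Genes next to the pathway were read from 5 further lists, of which 38 genes were tested. Of these 2 were called higher and 1 lower (2.63%), beside 4.45% higher and 8.53% lower among all tested genes. The median difference was -0.016 log2. The calls are given as single genes, and their count is not read as a trait of the lists. Each of the 3 called genes had a smaller adjusted p than any of the 28 members. With the cell cycle level as a covariate all 3 calls ended (limma adjusted p = 0.497 for Smpdl3a, 0.466 for Osbpl9 and 0.392 for Fads1), as did that of Pggt1b (0.299). That level was lower in every KO array than in any WT array. The fit can therefore hardly separate it from genotype, and nothing is drawn from the lost calls.

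Among other LXR targets and partners, 1 of 5 tested genes rose. Smpdl3a, a phosphodiesterase of the acid sphingomyelinase family known as an LXR target in human macrophages, read 9.30, 9.30, 9.35 and 9.48 in WT and 9.88, 9.93, 9.71 and 9.73 in KO. All KO arrays lay above all WT arrays, and it rose 1.37-fold (log2 0.45 ± 0.067 SE, adjusted p = 0.00333, limma). The receptors Rxra and Rxrb, partners of LXR, differed by 0.02 and 0.0094, and the corepressor Nrip1 by -0.08 (adjusted p from 0.433 to 0.923).

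Of 11 tested genes of lysosomal, ester and oxysterol handling, 1 rose. Osbpl9, of the oxysterol-binding protein family, read 10.93, 10.90, 10.83 and 10.88 in WT and 11.09, 11.15, 11.08 and 11.11 in KO. The groups were well apart relative to their spread, and it rose 1.16-fold (log2 0.22 ± 0.045 SE, adjusted p = 0.0138, limma). Lrp8, a lipoprotein receptor, stood at -0.24 (adjusted p = 0.0585), the oxysterol receptor Gpr183 at 0.29 (0.0595) and Hsd3b7, of bile acid synthesis, at 0.21 (0.0756).

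Among 7 tested genes of fatty acid synthesis 1 fell. Fads1, a desaturase of polyunsaturated fatty acids and an SREBP target, read 8.83, 8.97, 8.77 and 8.99 in WT and 8.54, 8.59, 8.60 and 8.68 in KO. All KO arrays were lower, and it fell 1.22-fold (log2 -0.29 ± 0.062 SE, adjusted p = 0.0171, limma), a call that ended without KO replicate 1 (adjusted p = 0.0529) and when the heat-shock list was the covariate (0.0537). Acaca, Acly and Elovl6, which make malonyl-CoA, supply acetyl-CoA and elongate fatty acids, stood at 0.16, -0.10 and -0.17 (adjusted p from 0.138 to 0.324).

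Neither the isoprenoid branch nor SREBP processing held a called gene among 7 and 8 tested (limma; 1 in each had an unadjusted p under 0.05). In the isoprenoid branch Coq2, which attaches the side chain of ubiquinone, stood at 0.22 (adjusted p = 0.0625), and the farnesyltransferase subunit Fntb at -0.10. Nus1 and Dhdds, subunits of the enzyme that makes dolichol precursors, stood at -0.11 and -0.07. Of the processing genes, the segregase Vcp, the sterol carriers Gramd1b and Gramd1a and the ligase Rnf139 stood at -0.18, -0.13, 0.05 and 0.10, with adjusted p from 0.142 to 0.695.

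**Figure D5:**
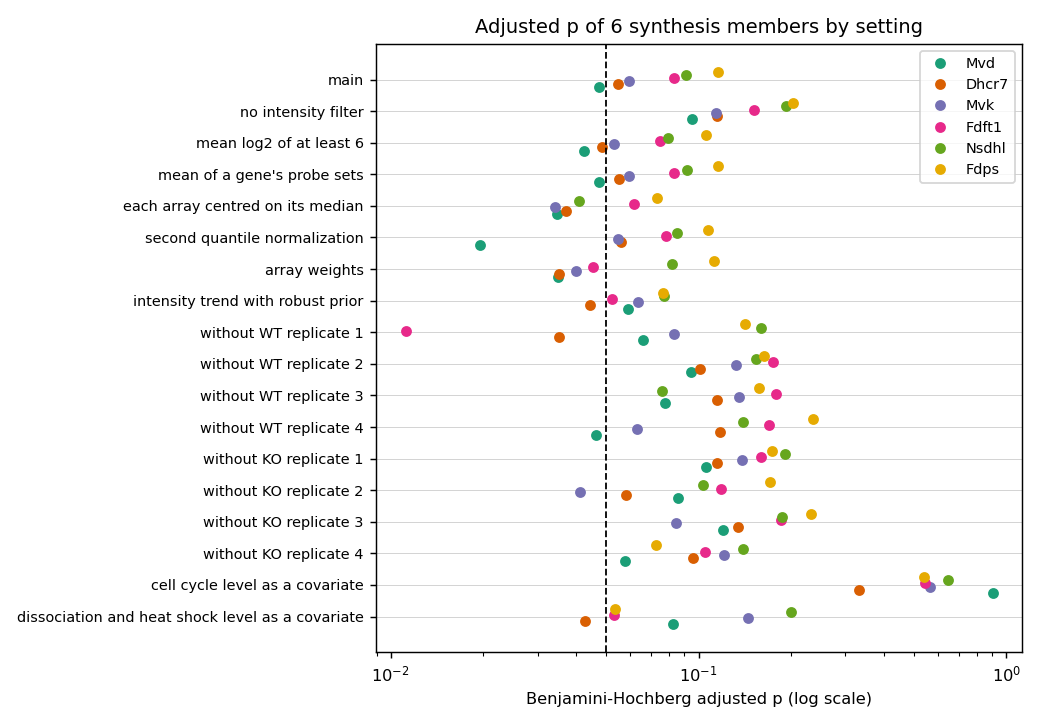
Benjamini-Hochberg adjusted p (x axis, log scale) of the 6 synthesis members with the smallest p under the main setting and each alternative fit (y axis); the dashed line is 0.05. In the main setting Mvd lies at 0.0475 and Fdps at 0.116, and which genes lie left of the line changes with the setting.

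The side of the threshold on which these genes fell depended on the setting. The number of members called lower was 4 under median centring of the arrays (Mvd, Mvk, Nsdhl and Dhcr7) and 4 with array weights (Mvd, Mvk, Fdft1 and Dhcr7), and 0 with no intensity filter. It was 2 without WT replicate 1, 1 without WT replicate 4 or KO replicate 2, and 0 without any other single array. The number called higher was 0 in every setting run.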

How the data were processed

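Gene expression was measured in 8 samples on Mouse Gene 2.0 ST arrays, 1 array per sample, after whole-transcriptome amplification of small amounts of RNA, per the labels' protocols. The deposited values are log2 intensities per probe set, which the authors obtained by RMA. The submitters' processing notes name Affymetrix Expression Console 1.1. The sources used here give no genome build or annotation. Array medians lay between 5.52 and 5.59, and differences of weak signals are compressed by background.

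Of 41345 probe sets, 23521 carry 1 symbol in the platform annotation, 1814 several and 16010 none. The brightest probe set per gene over all arrays was kept, and genes with a mean at or above 5.56 log2, the median of all probe sets, were tested. The genotypes were compared in R 4.3.3 with limma 3.58.1 (two-sided, genotype as the only term, Benjamini-Hochberg over 11585 genes, called at an adjusted p under 0.05). Adjusted p-values are from it except where a sentence names another setting, and differences are KO minus WT. The script was tested on simulated data. The members, roles and lists were chosen with earlier results of these data known, so no count over them is independent support.

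Array values were given for the called member and then by smallest p up to 14 members, others by range (Abca1 excepted), and up to 4 genes of each further list were named. Alternatives were no filter, a minimum mean of 6, averaging probe sets per gene, median centring, quantile normalization, array weights, a trended robust prior, an adjusted p under 0.01 and leaving out each array. The cell cycle and the heat-shock level as covariates were added after the data were seen. The number of arrays limits the precision.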

Additional observations from a re-analysis of the deposited data

Results flagged for a closer look

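Among 98 groups of 4 arrays examined (the 28 members, Pggt1b and the named genes of the further lists, in each genotype), 6 held an array far from the other 3 by Dixon's ratio, and chance alone gives about 1 in 20. Fdps stood at 9.51 log2 in WT replicate 4 against 9.32 to 9.33 in the other WT arrays, and Sqle at 7.03 in the same array against 6.56 to 6.64. Fdft1 stood at 8.96 in WT replicate 1 against 9.26 to 9.30. WT replicate 3 was low for Lss, at 7.11 against 7.26 to 7.29, and for Dhdds, at 9.05 against 9.28 to 9.29. In KO, Nrip1 stood at 9.41 in replicate 4 against 9.58 to 9.60.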

How the results depend on the processing

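No paired analysis was possible because the labels give the arrays no replicate numbers shared between the genotypes. The count of members called higher was 0 under every alternative. The count called lower, 1 in the main setting, was 4 under median centring, 4 under array weights, 2 with a minimum mean of 6 log2, and 0 with no intensity filter, at an adjusted p under 0.01 and with the cell cycle level as a covariate. It ranged from 0 to 2 when single arrays were left out. The alternatives of no filter and of a mean of at least 6 change the genes adjusted over, and those of single arrays the number of samples; for the others the cause was not tested. No gene that turned sign was called in either setting. Under median centring Lss, Msmo1, Stard4, Rxra and Rxrb turned to -0.018, -0.0053, -0.0078, -0.0093 and -0.025 log2. After a second quantile normalization Lss, Msmo1, Stard4 and Rxra stood at -0.022, -0.010, -0.0060 and -0.017. With the cell cycle level as a covariate Lss, Msmo1, Sc5d, Insig1, Stard4, Scap, Srebf1 and Fntb stood at -0.052, -0.21, -0.17, -0.31, -0.31, 0.029, 0.029 and 0.050. With the heat-shock level Msmo1, Sc5d, Insig1 and Stard4 stood at -0.015, -0.023, -0.033 and -0.020, and with probe sets averaged per gene Vcp stood at 0.084. Leaving out single arrays moved Lss between -0.025 and 0.038, Msmo1 between -0.024 and 0.080, Insig1 between -0.018 and 0.14, Stard4 between -0.041 and 0.13, Abca1 between -0.20 and 0.27, Abcg1 between -0.033 and 0.091, Nr1h3 between -0.0084 and 0.085, Gramd1a between -9.4e-05 and 0.084 and Rxrb between -0.0051 and 0.037. Precision is set by having 4 arrays per genotype: the SE of a member's difference had a median of 0.072 log2 and was widest for Abca1, at 0.28.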
